A study of Mus musculus with 40 samples.

Results

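The 10 predicted genes described here were among the Gm-named transcripts with the largest rise in late 2-cell embryos without maternal TDP-43, and they were followed across oocytes and early embryos. They were Gm21293, Gm6763, Gm8764, Gm21304 and Gm21312 on chromosome 10 and Gm11487, Gm11236, Gm428, Gm11758 and Gm11757 on chromosome 4. These 10 genes were taken from 24056 genes of the expression table, of which 1179 had a name made of Gm and a number. They were selected for a large rise in oKO over control late 2-cell embryos, measured here as the difference of mean log2(FPKM + 1). Their values in that comparison are therefore given as a description without a test. FPKM counts fragments relative to transcript length and to the mapped fragments of the library. The members held ranks 1 to 8, 10 and 11 of the Gm-named rows by this difference. The lowest member, Gm11757, had a difference of 3.93, and of the genes left out Gm11237 had 3.94, Gm4340 had 3.92, Gm20765 had 3.90 and Gm13871 had 3.88.

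The study asked whether TDP-43 deposited in the oocyte is needed when the embryo starts its own transcription. Control samples came from Tdp43 flox/flox females, and oKO samples from females of the genotype Tdp43 flox/flox;Zp3-Cre, whose Cre is expressed in growing oocytes. The females were 7 to 8 weeks old, on a mixed C57BL/6J and ICR background, and were mated with normal males, so the embryos received an intact paternal allele. PMSG priming preceded the collection of full-grown oocytes (FGO) by 48 h. The interval from hCG was 13 h for MII oocytes, 30 h for late 1-cell embryos (1C), 36 h for early 2-cell embryos (E2C) and 48 h for late 2-cell embryos (L2C), with 2 libraries for each genotype and stage. In a further experiment 1-cell embryos were injected with mCherry-Trim21 mRNA and either an antibody to TDP-43 or rabbit IgG and grown to L2C. Trim-away directs proteins bound by an antibody to degradation. Its 2 libraries titled KD and 2 libraries titled NC carry genotype entries that run the other way, so they are named here by their titles. In total 24 RNA-seq libraries in 12 groups were used. Each library was made from pooled oocytes or embryos, so fewer embryos holding a transcript and less transcript per embryo cannot be told apart. Nothing in the labels says that libraries of a group came from separate females, and p-values then measure only the spread between these pools.

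After fertilization the mouse embryo lives at first on RNA stored in the oocyte. Zygotic genome activation (ZGA) then begins with a weak minor wave in the 1-cell and early 2-cell embryo and turns into the major wave at the late 2-cell stage. Many minor-wave transcripts come from tandem gene families that are read briefly and then fall, among them the Zscan4 and Usp17l clusters. TDP-43, encoded by Tardbp, binds RNA rich in UG repeats and also DNA. No function of the members themselves is annotated in the references used.

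The members formed a pair of tandem families. In a GENCODE annotation of mm9 (NCBIM37) Gm6763 lay on the plus strand at chr10:103606899-103616256, with 2 exons and a coding sequence of 801 bases. It was the only chromosome 10 member with an entry there. All chromosome 10 members have FPKM values, so this annotation was not the gene set that gave the FPKM. The chromosome 4 members each had 6 exons. Gm11487 lay at chr4:73062066-73066106 on the minus strand, Gm11236 at chr4:73284035-73288075 and Gm428 at chr4:73329420-73333462 on the plus strand, and Gm11758 at chr4:73518123-73522170 and Gm11757 at chr4:73532970-73537016 on the minus strand. The coding length was 1065 bases in Gm11487 and 1083 bases in the other 4. Gm11237 was left out of the members, although its rise ranked above those of Gm428 and Gm11757. In this annotation it spans chr4:73268913-73288075 and so covers all of Gm11236. On these coordinates reads of the pair cannot be separated where they overlap. On chromosome 10 the RefSeq promoters of Gm8764, Gm21304, Gm21312, Gm20765 and Gm4340 followed each other at steps of 8509 bases on the GRCm38.p6 build. In the order of RefSeq genes on that build Gm6763 lies between Gm21293 and Gm8764.

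Promoters are shown for one member of each family and for Gm4301, a related gene on chromosome 10 with another time course, because the 3 sequences share little. RefSeq windows run from 250 bases before to 50 bases after the gene start. Of the 10 members 8 had such a window, and Gm6763 and Gm11236 had no entry. Capitals mark matches on either strand to 3 motifs. The first is GGATTA, bound by homeodomain factors of the Otx and Obox type. The second is GATTNNATC, the core of the Dux site. The third is the TATA box, searched as TATAAA. The TATAAA matches on both strands overlap in Gm428, which gives the run of 8 capitals. Coordinates are GRCm38.p6, at chr10:104142737-104143036 on the plus strand for Gm21293, chr4:73683264-73683563 on the plus strand for Gm428 and chr10:100335426-100335725 on the plus strand for Gm4301.
Gm21293: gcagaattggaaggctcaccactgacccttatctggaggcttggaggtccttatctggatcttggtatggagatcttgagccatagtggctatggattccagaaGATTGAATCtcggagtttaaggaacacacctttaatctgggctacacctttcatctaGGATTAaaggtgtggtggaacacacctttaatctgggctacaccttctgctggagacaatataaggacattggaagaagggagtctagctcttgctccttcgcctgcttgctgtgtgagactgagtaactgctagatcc
Gm428: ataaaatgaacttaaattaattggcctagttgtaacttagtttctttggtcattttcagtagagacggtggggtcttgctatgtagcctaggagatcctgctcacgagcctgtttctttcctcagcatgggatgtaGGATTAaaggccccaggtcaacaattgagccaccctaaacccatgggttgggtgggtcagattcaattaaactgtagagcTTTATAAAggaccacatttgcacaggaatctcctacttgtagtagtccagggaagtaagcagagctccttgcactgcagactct
Gm4301: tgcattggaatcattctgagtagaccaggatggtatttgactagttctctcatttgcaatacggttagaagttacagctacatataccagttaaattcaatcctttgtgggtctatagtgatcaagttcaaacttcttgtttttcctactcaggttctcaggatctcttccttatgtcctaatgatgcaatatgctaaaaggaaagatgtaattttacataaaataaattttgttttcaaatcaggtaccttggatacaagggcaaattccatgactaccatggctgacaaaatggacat

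Within a family the promoters were close to identical. The 4 chromosome 10 windows were 99.7 to 100% identical, and Gm21312 differed from Gm21293 by G1C alone (position 1 is the 5′ end of the window). The 4 chromosome 4 windows were 96.3 to 100% identical at the best shift without gaps. Between the families that shift reached 29.8 to 33.7%. All 8 windows held GGATTA. The longest run common to the 8 windows, TAGGATTAAAGG of 12 bases, was found from these same windows. It was in 17 of 32851 mouse promoters, which include the 8 themselves and those of Gm20765, Gm4340, Gm13871 and Gm11756. Because windows within a family were close to identical, this count does not measure how rare the run is. GGATTA alone was in 7.06% of all promoters. GATTNNATC was in each of the 4 chromosome 10 windows, 146 bases before the gene start, in no chromosome 4 window, and in 1.58% of all promoters. TATAAA was in each of the 4 chromosome 4 windows, in no chromosome 10 window, and in 13.6% of all promoters. CAAGGTCA, the Nr5a2 site, was in none of the 8 windows and in 1.56% of all promoters. TGTGTG, the DNA letters of a UG repeat, was in the 4 chromosome 10 windows alone among the members and in 21.1% of all promoters. A letter match is not a measured binding site.

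The copies were so alike that the expression table could not fully separate them. Gm21293, Gm21304, Gm6763 and Gm8764 had the very same FPKM in 9 of 24 libraries, which included all 8 oocyte libraries and 1 control 1C library. The ratio of Gm11757 to Gm11758 lay within 1% of its median of 1.02 in 19 of 24 libraries, and their mm9 transcripts were 99.9% identical. The chromosome 4 transcripts were 96.4 to 99.9% identical to each other. The 10 members were therefore read as 2 families with shared reads and not as 10 separate measurements.

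Tardbp was lower in oKO than in control at every stage. In L2C it was 1.95 and 2.01 FPKM in oKO and 6.14 and 7.52 FPKM in control, and in the injected embryos it was 3.65 and 3.85 FPKM in the libraries titled KD and 5.29 and 5.95 FPKM in those titled NC. The sum of FPKM per library ran from 124265 to 432671, and read depth is not given. It was lowest in oKO L2C, at 124265 and 126713, against 209102 and 215926 in control L2C, and the median of all tested genes was accordingly lower by 0.79 on the log2 scale. Replicates correlated at 0.967 to 0.992 (Pearson, 8924 genes), with oKO E2C and oKO L2C lowest. In oKO E2C the 2-cell marker genes summed to 218 FPKM in replicate 1 and 682 FPKM in replicate 2, against 1056 to 1199 FPKM in control. All 8 oocyte markers were present in all 12 groups, and cumulus and granulosa markers summed to at most 3.46 FPKM in the 2-cell libraries. Those cumulus and granulosa sums reached 22.3 FPKM in FGO and 16.9 in MII, and were 9.54 and 10.6 in control 1C and 7.39 and 7.95 in oKO 1C. Oviduct markers summed to 0.361 and 5.49 FPKM in control 1C and 0.165 and 0.257 in oKO 1C. Male germ markers summed to 1.48 to 34.8 FPKM over the libraries.

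**Figure D1:**
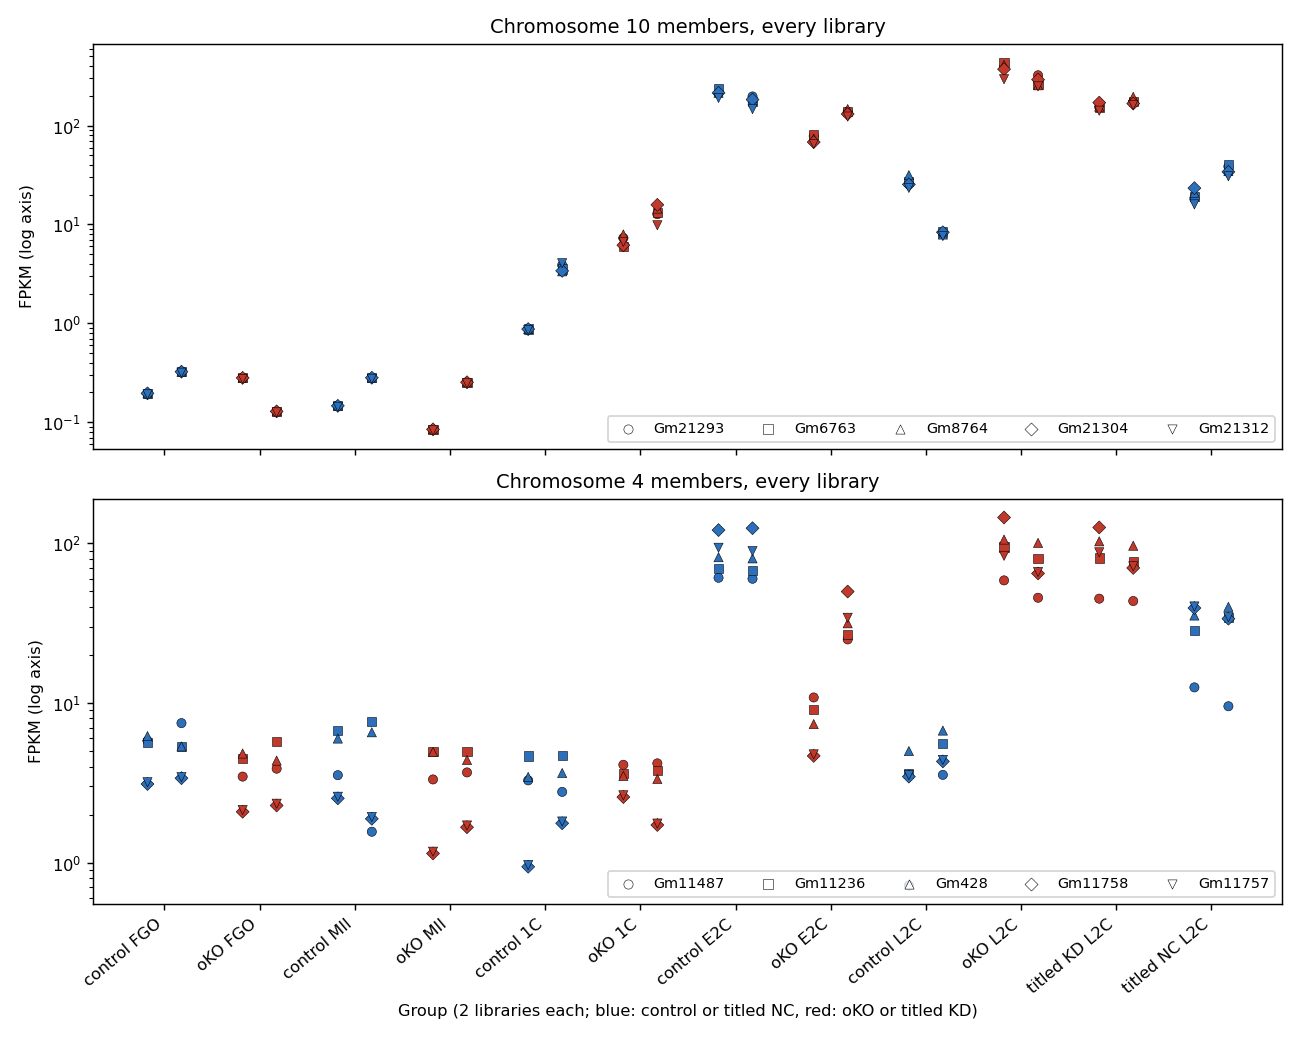
FPKM (log axis) of each member in each of 24 libraries, with the 5 chromosome 10 members above and the 5 chromosome 4 members below; each point is 1 gene in 1 library, blue for control or titled NC and red for oKO or titled KD. In L2C the oKO points of chromosome 10 lie between 249 and 436 FPKM and the control points between 7.63 and 31.6 FPKM.

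In oocytes the chromosome 10 members were almost silent and the chromosome 4 members were low in both genotypes. Chromosome 10 members ranged from 0.191 to 0.324 FPKM in control FGO, 0.126 to 0.281 in oKO FGO, 0.143 to 0.282 in control MII and 0.0826 to 0.253 in oKO MII, so the genotypes overlapped and no test was run under the filter of a mean of 1 FPKM. Chromosome 4 members ranged from 3.11 to 7.48 FPKM in control FGO and 2.08 to 5.71 in oKO FGO. In limma, 0 of the 5 tested members passed an adjusted p of 0.05 with a change of at least 2-fold at FGO, where 1.74% of all genes were called higher and 1.32% lower. At MII they ranged from 1.56 to 7.63 FPKM in control and 1.14 to 4.98 in oKO. The count was again 0 of 5, where 4.28% were called higher and 1.35% lower. At an unadjusted p under 0.05 there was 1 member at FGO, Gm11487, and 1 at MII, Gm11236. Gm11487 was at 5.79 and 7.48 FPKM in control FGO and 3.46 and 3.88 in oKO FGO (log2 −0.70 ± 0.27 SE, limma adjusted p = 0.0989).

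At 1C all 5 chromosome 10 members were called higher in oKO, by log2 1.57 to 2.04 in limma (adjusted p 0.0028 to 0.00966), while 0 of the 5 chromosome 4 members were called and none had an unadjusted p under 0.05. Across all genes 1.74% were called higher and 2.45% lower. Gm21293 was at 0.874 and 3.88 FPKM in control and 7.29 and 12.7 FPKM in oKO. Gm8764, with the largest change of the 5, was at 0.874 and 3.36 FPKM in control and 7.93 and 14.5 FPKM in oKO (log2 2.04 ± 0.42 SE, adjusted p = 0.0028). Over these 5 genes the oKO libraries were at 5.97 to 15.8 FPKM against 0.854 to 4.05 FPKM in control. The control replicates also differed widely from each other.

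On chromosome 4 the 1C levels of the genotypes lay close together. Gm428 was at 3.44 and 3.64 FPKM in control and 3.49 and 3.34 FPKM in oKO (log2 −0.04 ± 0.24 SE), and the family ranged from 0.942 to 4.67 FPKM in control and from 1.72 to 4.19 FPKM in oKO. Without oKO 1C replicate 2 none of the 5 chromosome 10 members was called (log2 1.26 to 1.64), and when the 1C libraries were fitted alone 1 was, Gm8764. Blood and immune markers summed to 18.2 and 168 FPKM in the control 1C libraries and to 1.54 and 4.54 FPKM in oKO 1C, and their part in the result was not tested.

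At E2C both families were at their highest level in control, and all 5 chromosome 4 members were called lower in oKO, by log2 −1.81 to −2.87 (limma adjusted p 0.000314 to 0.0124), while the 5 chromosome 10 members had log2 values of −0.89 to −1.06 and did not pass (adjusted p 0.265 to 0.351, with 0 at an unadjusted p under 0.05). Across all genes 3.59% were called higher and 7.89% lower. Gm428 was at 82.0 and 80.6 FPKM in control and 7.38 and 31.6 FPKM in oKO (log2 −2.32 ± 0.38 SE, adjusted p = 0.000347). Gm11758, the most abundant chromosome 4 member in control, was at 121 and 125 FPKM in control and 4.66 and 49.9 FPKM in oKO (log2 −2.87 ± 0.65 SE, adjusted p = 0.0051). Control replicates of this family hardly differed. Over its members control values were 60.1 to 125 FPKM and oKO values 4.66 to 49.9 FPKM.

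Across the chromosome 10 family oKO E2C values of 65.2 to 146.9 FPKM met control values of 146.7 to 237 FPKM. Gm21293 was at 212 and 197 FPKM in control and 78.3 and 138 FPKM in oKO. Gm21304 was at 214 and 183 FPKM in control and 68.1 and 131 FPKM in oKO (log2 −1.06 ± 0.61 SE, limma adjusted p = 0.265). For all 10 members oKO E2C replicate 1 was the lower of the pair, as it was for the 2-cell markers. Without that library 3 chromosome 4 members were called, Gm11236, Gm428 and Gm11757, and the log2 values of the family shrank to −1.24 to −1.40. The count of called members was also 3 without either control E2C library or with the E2C libraries fitted alone.

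At L2C, the comparison that selected them, the members had fallen in control and stood at 16.9 to 27.1 times the control level in oKO. Gm21293 was at 25.7 and 8.07 FPKM in control and 391.6 and 323 FPKM in oKO. Gm6763 was at 27.1 and 8.39 FPKM in control and 436 and 259 FPKM in oKO. Control replicate 1 was the higher of its pair for all 5 chromosome 10 members, and all oKO values lay above both.

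Chromosome 4 members showed the same split at lower levels. Gm428 was at 5.00 and 6.72 FPKM in control and 106 and 100.8 FPKM in oKO. Gm11758 was at 3.46 and 4.31 FPKM in control and 145 and 64.8 FPKM in oKO. Gm11487, the lowest of the members in oKO, was at 0.718 and 3.54 FPKM in control and 58.7 and 45.7 FPKM in oKO. All 10 members pass the same call here, as the selection fixes, and 6.80% of all genes were called higher and 40.7% lower. With libraries scaled by median ratios the log2 differences of the members were 4.88 to 5.45, and by quantiles 5.32 to 5.86. The 2-cell markers summed to 27.3 and 27.9 FPKM in control L2C and to 187 and 208 FPKM in oKO L2C.

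The word retained, under which these genes were grouped, did not describe their mean FPKM in oKO. Their FPKM did not stay at the oKO E2C level, and the group means of all 10 members were 2.88 to 5.30 times higher in oKO L2C than in oKO E2C. The low oKO E2C replicate 1 enlarges these ratios. In Gm11758 the lower oKO L2C library was at 64.8 FPKM and oKO E2C replicate 2 at 49.9 FPKM. In control L2C they were down to 3.16 to 9.78% of control E2C. The oKO L2C level of the chromosome 10 members was 1.61 to 1.74 times the control E2C level, and that of the chromosome 4 members 0.816 to 1.28 times. Since FPKM is a share of each library and the oKO L2C sum was low, these ratios between stages describe shares and not molecules per embryo. They use the libraries that selected the members and carry no test.

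**Figure D2:**
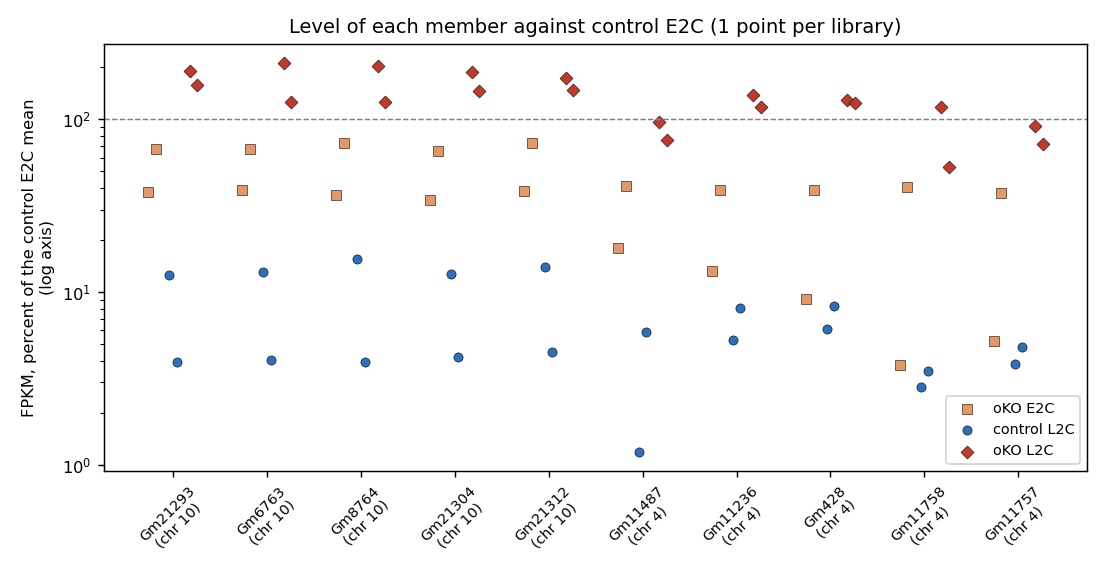
FPKM of each member in oKO E2C, control L2C and oKO L2C as a percent of its mean in control E2C (log axis, dashed line at 100%), with 1 point per library. Control L2C points lie between 1.19 and 15.6% and oKO L2C points between 52.8 and 211%, above the oKO E2C points of the same gene.

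The injected embryos gave a readout that played no part in the selection. In limma 8 of 10 members were called higher in the libraries titled KD than in those titled NC and none lower, where 7.86% of all genes were called higher and 8.47% lower. The 5 chromosome 10 members had log2 values of 2.51 to 2.71 (adjusted p 0.00114 to 0.00336). Gm21293 was at 154 and 175 FPKM in the libraries titled KD and 18.3 and 38.6 FPKM in those titled NC (log2 2.58 ± 0.55 SE, adjusted p = 0.00191). Gm21312 was at 141 and 161 FPKM against 15.9 and 30.7 FPKM (log2 2.71 ± 0.53 SE, adjusted p = 0.00114). The mean was 5.51 to 6.50 times higher for the family.

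On chromosome 4 the change was smaller and 3 of 5 members passed. Gm11487 was at 45.1 and 43.6 FPKM in the libraries titled KD and 12.5 and 9.54 FPKM in those titled NC (log2 1.92 ± 0.43 SE, limma adjusted p = 0.00257). Gm428 was at 103 and 96.7 FPKM against 35.3 and 40.05 FPKM (log2 1.38 ± 0.35 SE, adjusted p = 0.00605). Gm11236 also rose (log2 1.31 ± 0.30 SE, adjusted p = 0.00342). Gm11758 (log2 1.34 ± 0.59 SE, adjusted p = 0.0889) and Gm11757 (log2 1.07 ± 0.47 SE, adjusted p = 0.0872) did not pass.

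Leaving out replicate 1 of the libraries titled KD lowered the chromosome 4 calls from 3 to 1, Gm11487, and left all 5 on chromosome 10. The NC level of chromosome 4 members was 5.18 to 9.42 times that of uninjected control L2C, and that of chromosome 10 members 1.41 to 1.70 times. Injection, culture and collection cannot be told apart in that ratio. The 2-cell markers summed to 364 and 409 FPKM in the libraries titled KD and 78.9 and 108 FPKM in those titled NC. Blood and immune markers summed to 115 and 143 FPKM against 50.6 and 74.0 FPKM, and the part of either list in the result was not tested.

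**Figure D3:**
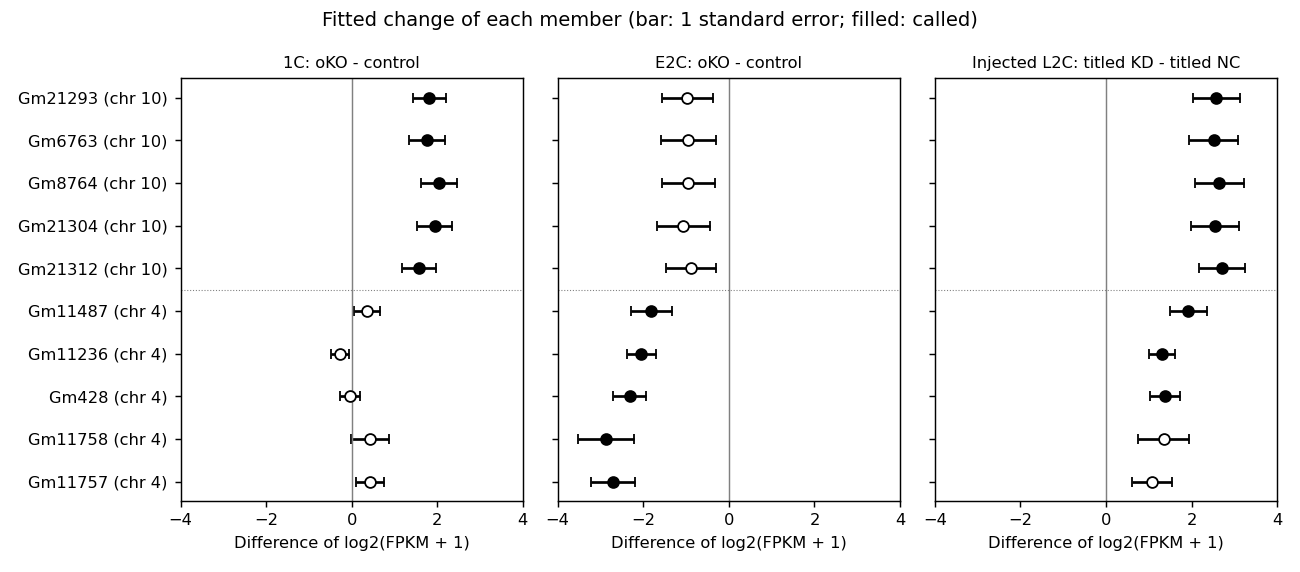
Difference of log2(FPKM + 1) of each member in 3 comparisons that did not select it, at 1C and E2C (oKO minus control) and in injected L2C embryos (titled KD minus titled NC); bars are 1 standard error and filled points passed the call. Filled points are the 5 chromosome 10 members at 1C, the 5 chromosome 4 members at E2C and 8 members in injected embryos.

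The oKO effect changed between 1C and E2C. The effect at E2C minus that at 1C was called negative for 8 of 10 members and positive for none, where 3.75% of all genes were called lower and 1.70% higher. Values ran from log2 −1.77 ± 0.40 SE in Gm11236 (limma adjusted p = 0.00933) to −3.30 ± 0.80 SE in Gm11758 (adjusted p = 0.0193). For chromosome 10 the difference joined a rise at 1C to a lower value at E2C, with −2.79 ± 0.73 SE in Gm21293 (adjusted p = 0.03). Gm21312 (adjusted p = 0.0502) and Gm6763 (adjusted p = 0.0513) missed the threshold. The count was 3 without oKO E2C replicate 1 or oKO 1C replicate 2, and 2 without either control E2C library. This comparison shares its libraries with those at 1C and E2C.

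The normal course of the families was seen in control. In MII oocytes the chromosome 10 members were at 0.143 to 0.282 FPKM and in control 1C at 0.854 to 4.05 FPKM. They entered this comparison only through the 1C libraries, so no test is given for them. The chromosome 4 members were not called in limma between MII and 1C, with log2 values of −0.68 to 0.24 and 2 at an unadjusted p under 0.05, where 14.4% of all genes were called higher and 11.1% lower. From 1C to E2C all 10 rose, by log2 3.62 to 6.15 (adjusted p 4.2e-09 to 2.2e-07), where 8.29% of all genes were called higher and 37.3% lower. On chromosome 10 this took mean levels of 2.12 to 2.45 FPKM up to 169 to 207 FPKM. The median of all genes moved by −0.72 in this comparison, which median-ratio scaling reduced to −0.06. All 10 members were lower in the NC libraries at L2C than in control E2C, by log2 −1.09 to −2.90 (adjusted p 0.00012 to 0.0269), where 21.1% of all genes were called lower and 38.3% higher. Stage, injection and collection cannot be told apart there.

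Related copies were found from the mm9 coding transcripts. A search with the members' transcripts returned 20 further genes aligned over at least 60% of a member. Gm13871 and Gm11237 on chromosome 4 and Gm4340 on chromosome 10 were at least 99.6% identical to their nearest member. Gm4340 and its neighbour Gm20765 had the pattern of the chromosome 10 family, with Gm20765 at 24.05 and 10.4 FPKM in control L2C, 293 and 214 FPKM in oKO L2C, 142 and 149 FPKM in the libraries titled KD and 16.1 and 32.8 FPKM in those titled NC. The transcript of Gm6763 also aligned over 64.4% of its length, at 82.6% identity, to Thoc4, now named Alyref, which encodes an mRNA export adaptor. Alyref itself was at 31.5 and 43.0 FPKM in control L2C and 12.6 and 10.9 FPKM in oKO L2C (log2 −1.57 ± 0.29 SE, limma adjusted p = 9.9e-05). With 40.7% of all genes called lower at L2C and a median of −0.79, this call was lost after median-ratio scaling (log2 −0.71, adjusted p = 0.0811) and after quantile normalization (log2 −0.78, adjusted p = 0.0389, under 2-fold). In injected embryos Alyref was at 3.93 and 3.22 FPKM in the libraries titled KD and 7.95 and 9.39 FPKM in those titled NC (log2 −1.08 ± 0.33 SE, limma adjusted p = 0.0196), and it was called under both scalings. Alyref was named after its values were seen. The same search returned Refbp2, now named Alyref2, over 74.4% of Gm6763 at 75.9% identity. Alyref2 was at 5.00 and 6.32 FPKM in control L2C and 4.50 and 3.84 FPKM in oKO L2C. In injected embryos Alyref2 was at 2.82 and 2.73 FPKM in the libraries titled KD and 3.75 and 2.49 FPKM in those titled NC.

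A second set of relatives had like transcripts and another course. Gm4301, Gm4302, Gm4303, Gm4305, Gm4307 and Gm4312 lie elsewhere on chromosome 10, and their transcripts were 88.7 to 94.8% identical to Gm6763. Their promoters reached 32.6 to 33.0% identity with those of the chromosome 10 members and held none of the 5 motifs. With each other these 6 promoters were 98.3 to 100% identical, and how far the 6 genes share reads was not tested. A link between promoter and course was not tested either. All 6 were called higher in oKO at 1C (log2 1.75 to 2.35 in limma), where 1.74% of all genes were called higher and 2.45% lower. At E2C they were at 80.0 to 183 FPKM in control and 97.6 to 351 FPKM in oKO, with 0 of 6 called (log2 0.55 to 0.97, limma adjusted p 0.146 to 0.342). Across all genes 3.59% were called higher at E2C and 7.89% lower. At an unadjusted p under 0.05 there were 2 of the 6 relatives, and 1933 of the 6657 genes tested. Without oKO E2C replicate 1 the log2 values of the 6 were 0.88 to 1.77. By oKO L2C they had dropped to 7.67 to 16.2 FPKM, which was 4.24 to 7.85% of oKO E2C. In control L2C they were at 0.386 to 2.88 FPKM. Their oKO L2C means were thus also above control, by 5.58 to 26.7 times, against 16.9 to 27.1 times for the members. In injected embryos they were at 2.16 to 6.87 FPKM in the libraries titled KD and 0.516 to 1.58 FPKM in those titled NC. Of the 6, 4 entered that comparison only through the libraries titled KD. The other 2, Gm4305 and Gm4307, were called higher, where 7.86% of all genes were called higher and 8.47% lower. The members were selected for high oKO L2C values and this set was not, so part of their contrast at L2C is built in. The difference between this set and the members was not tested.

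**Figure D4:**
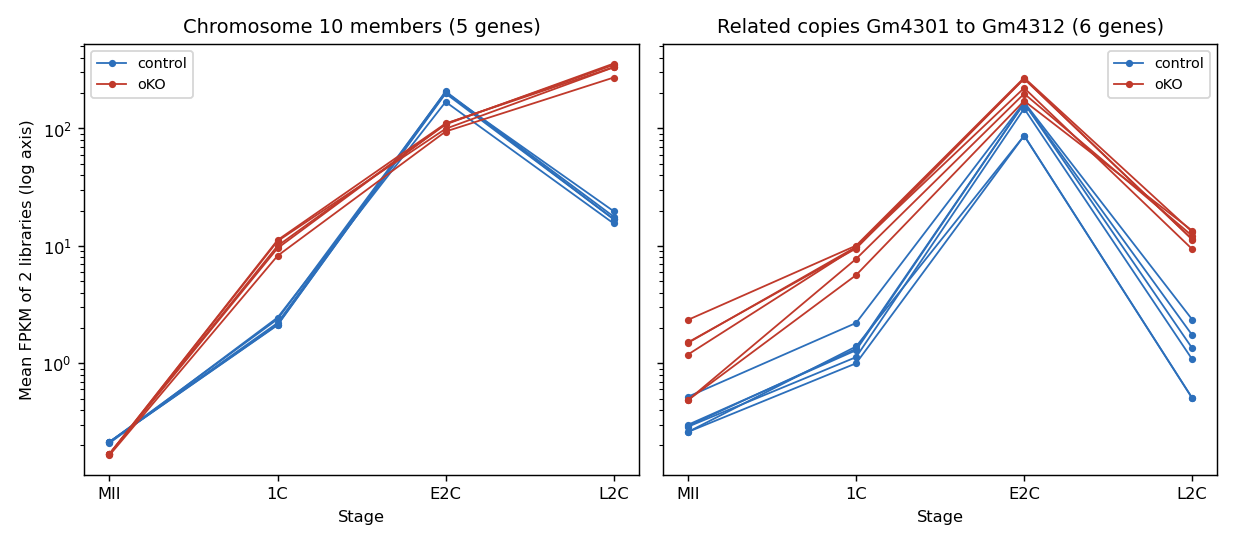
Mean FPKM of 2 libraries (log axis) at MII, 1C, E2C and L2C in control (blue) and oKO (red) for the 5 chromosome 10 members, left, and for the 6 related genes from Gm4301 to Gm4312, right; each line is 1 gene. From E2C to L2C the oKO lines of the members go up to 271 to 357 FPKM and those of the related genes go down. The members were selected on the L2C libraries and the related genes were not.

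Over the 24 libraries the members of a family moved as one. Pearson correlations of log2(FPKM + 1) were 0.9986 to 0.9996 between chromosome 10 members and 0.928 to 0.997 between chromosome 4 members, and 0.872 between the means of the families. Shared reads and shared libraries enter these values. Of 7238 other genes the profile most like the mean of all members was that of Gm4340 (r = 0.984), followed by Gm13040, Gm13043, Gm20765, Gm2022, Gm13057, BC080695 and Gm4027 (r = 0.972). For chromosome 10 alone Gm20765 (r = 0.999) and Gm4340 (r = 0.999) led, and for chromosome 4 alone LOC100502896 (r = 0.994) and Gm13871 (r = 0.993). These profiles include the L2C libraries used for selection.

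Other genes of the early 2-cell burst gave a background for the members. Of 35 listed genes, among them the Zscan4, Usp17l and Tdpoz families, 34 were in the table. At 1C 10 were tested, and 6 of these, Gm5662 among them, passed the filter only through the oKO libraries. Of the 4 with a mean of at least 1 FPKM in both genotypes, 3 were called higher in limma and none lower. Across all genes 1.74% were called higher and 2.45% lower. Gm4027, which is one of the 3, was at 0.396 and 2.71 FPKM in control and 11.8 and 18.8 FPKM in oKO (log2 2.80 ± 0.34 SE, limma adjusted p = 1.7e-05). At E2C 30 were tested, of which 4 passed only through control. Of the 26 with at least 1 FPKM in both genotypes, 16 were called lower and none higher (median −1.37, against −0.15 for all genes). Across all genes 7.89% were called lower and 3.59% higher. Among the 16, Gm2016 was at log2 −2.63 ± 0.47 SE and Gm2022 at −2.63 ± 0.40 SE. The median of the 26 was −0.67 without oKO E2C replicate 1 and −1.35 without either control E2C library. Fewer of the 26 were called in each of these fits. In injected embryos 14 of 31 were called higher and none lower (median 0.95, against −0.13 for all genes). Across all genes 7.86% were called higher and 8.47% lower. The 14 were led by Zscan4f (log2 2.67 ± 0.37 SE) and Zscan4c (log2 2.64 ± 0.36 SE). The median of the 31 was 0.94 without replicate 1 of the libraries titled KD and 0.84 without replicate 1 of those titled NC. Fewer of the 31 were called in each of these fits. Zscan4d, which marks the 2-cell burst, was at 515 and 488 FPKM in control E2C, 8.09 and 12.1 FPKM in control L2C and 58.6 and 60.5 FPKM in oKO L2C. Its oKO L2C level lay below both oKO E2C libraries, at 112 and 331 FPKM, as it did for 6 of the 34 genes, of which 5 were Zscan4 genes. In 23 of the 34 both oKO L2C libraries lay above both oKO E2C libraries, and in 5 they overlapped, with Tcstv1 and Tcstv3 at 0 FPKM. The share over all genes was not counted, and oKO E2C replicate 1 was low for the 2-cell markers, so these counts are a description only. Mean FPKM went from 75.4 to 385 in Gm4027, from 73.0 to 402 in BB287469 and from 12.9 to 83.3 in Zfp352.

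The split of calls over all genes moved with scaling, most of all at L2C. There 528 higher and 3159 lower became 1585 and 1323 after median-ratio scaling and 1298 and 1518 after quantile normalization. For the other comparisons the values are given in the same order. At 1C 143 and 201 became 155 and 107, then 184 and 130. At E2C 239 and 525 became 329 and 505, then 303 and 414. In injected embryos 637 and 686 became 805 and 529, then 736 and 431. From 1C to E2C in control 665 and 2995 became 1386 and 1213, then 1209 and 1371. At FGO 155 and 118 became 107 and 98, then 88 and 101. For NC against control E2C 3012 and 1659 became 2921 and 1994, then 2413 and 2201. The median of all genes was −0.14 at 1C, −0.15 at E2C and −0.13 in injected embryos.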

How the data were processed

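RNA-seq libraries were prepared by Smart-seq2 from pools of oocytes or embryos. Reads were trimmed (Trim Galore 0.6.6 in the submitters' processing notes), aligned to mm9 with HISAT2 2.2.1 and quantified on RefSeq genes with StringTie 2.1.2, and the authors deposited FPKM, with no counts. How reads with several matches were shared between copies is not given in the sources used here. Of 24085 rows, 2 without values and 27 with date-like names were left out. Values were analysed as log2(FPKM + 1) with limma 3.58.1 in R 4.3.3 (trend, robust, 1 weight per collection) over 24 libraries and 12 groups, for genes with a mean of at least 1 FPKM in the libraries compared, with Benjamini-Hochberg adjustment over all genes tested. Genes were called where the change reached 2-fold and its adjusted p did not exceed 0.05. Fold changes on this scale understate those of low genes. With 2 libraries against 2 an exact permutation test cannot go below p = 0.333. The tests were run on simulated data with the same spread in every group and independent genes. These data have unequal spread and shared reads, so that run does not measure the error rate here. Members and gene lists were chosen with earlier results of these data known. Named genes were the members, their neighbours and relatives, the 8 genes of most similar profile, the next genes outside the selection, up to 4 called genes of each list, and Tardbp. Relatives were found with blastn 2.17.0 (e-value at most 1e-05) in the mm9 transcripts, a rule set after the data were seen. Counts of listed genes over those with a mean of at least 1 FPKM in both groups were likewise chosen after seeing the data. The same holds for values of listed genes without single libraries. The 16 Stacc-seq samples were not analysed here.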

Additional observations from a re-analysis of the deposited data

Results flagged for a closer look

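The oKO effect on 8 members differed between the 1-cell and early 2-cell stages by the interaction test in limma. The effect at E2C minus that at 1C, on the log2 scale, was −2.79 in Gm21293, −3.00 in Gm21304 and −2.99 in Gm8764 on chromosome 10. On chromosome 4 it was −1.77 in Gm11236, −2.17 in Gm11487, −2.28 in Gm428, −3.13 in Gm11757 and −3.30 in Gm11758. On chromosome 10 the effect at 1C was positive and was called, and on chromosome 4 it was within log2 0.43 of zero.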

How the results depend on the processing

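Refitting the members' changes in the 9 tested comparisons gave 1131 values, of which 1018 kept their direction and their side of the threshold, 87 lost the call, 21 gained it and 5 turned in direction. These totals include the chromosome 10 members in control 1C against MII, which entered there only through the 1C libraries. At 1C the count of called members was 3 of the main 5 with a pseudocount of 5, and 1 with the compared libraries alone. At E2C it was 3 of 5 with the compared libraries alone. For E2C minus 1C it was 4 of 8 with a pseudocount of 0.1, 3 with no filter and 2 with the compared libraries alone. For control 1C against MII the called members were those of chromosome 10, so no count is given. Leaving out each library in turn gave counts of 0 to 5 at 1C, 3 to 5 at E2C and 2 to 10 for E2C minus 1C. Such counts were 6 to 8 in injected embryos and 7 to 8 for NC against control E2C. The counts at FGO, MII and for control E2C against 1C were the same in every fit. Of uncalled log2 values that turned, Gm11236 at FGO ranged from −0.2406 to 0.0455 over left-out libraries, Gm11487 from −0.0121 to 0.811 at MII and from −0.17 to 0.6493 in control 1C against MII, and Gm428 at 1C was 0.0646 after median-ratio scaling and 0.0971 after quantile normalization. The cause was not tested. Deviations of libraries with the same replicate number correlated at −0.227 to 0.212 over all genes, highest at 1C. This does not settle whether such libraries were paired for the members. With the replicate block E2C minus 1C called 10 members, with no other count of members changed. The block lowered the standard error of Gm8764 at 1C from 0.42 to 0.21. Over all genes, a pseudocount of 5 lowered the calls from 273 to 86 at FGO, 445 to 167 at MII, 344 to 114 at 1C, 764 to 327 at E2C, 1323 to 538 in injected embryos, 2106 to 1006 for control 1C against MII, 3660 to 1672 for control E2C against 1C and 4671 to 2627 for NC against control E2C. For E2C minus 1C they fell from 423 to 216 with the compared libraries alone. Without the 2-fold threshold 1148 were called at FGO, 1584 at MII, 1463 at 1C, 2652 in injected embryos and 4700 for control 1C against MII. Leaving out a library gave 226 to 420 at FGO, 216 to 503 at 1C, 308 to 1208 at E2C, 689 to 1802 in injected embryos and 175 to 736 for E2C minus 1C. Read depth is unknown, with 2 libraries per group, and values under about 1 FPKM, which include the chromosome 10 members in oocytes, carry little weight.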
